A study of Mus musculus with 24 samples.

Results

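The experiment described here is the interaction of brain injury and erythropoietin in the right hippocampus of newborn mice, that is, how far the level of each gene in pups that had both departed from the sum of the changes in pups that had one of them. Erythropoietin (EPO) is the hormone of red cell formation, given here as a recombinant protein at a high dose. All 24 arrays of the series enter, 6 for each of 4 groups of BALB-c pups aged 10 days: sham-injured without treatment (sham none, titles starting Sham_N), sham-injured with EPO (sham EPO, Sham_Y), brain-injured without treatment (injured none, Epo_N) and brain-injured with EPO (injured EPO, Epo_Y). The protocol names a carotid artery ligation on the side that was sampled. The day and dose of EPO and the time from injury to sampling were not stated in the labels. Each pup had 1 Affymetrix Mouse Exon 1.0 ST array, and the deposited values are on a log2 scale. The members are the 14939 of 23238 rows that carry 1 gene symbol. For each row the value is the difference of injured EPO from sham EPO minus the difference of injured none from sham none, in log2 units. It equals the observed injured EPO mean minus the additive prediction, which is the sham EPO mean plus the injured none mean minus the sham none mean. A negative value means that, on the log2 scale, pups with both exposures read lower than the sum of the changes predicts, and a positive value that they read higher.

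The titles can also be read with the treatment as the first word and the injury as the letter after it. That reading exchanges the names sham EPO and injured none and leaves the interaction of every gene as it is. Interactions, their tests and the counts of calls are therefore the same under both readings. Values given under the names sham EPO and injured none are not: under the other reading the arrays named sham EPO here are those of injury without EPO, those named injured none are of EPO without injury, and the arrays called without EPO are those without injury. The group names used here are those of the sample characteristics, and the files do not settle which reading is right. With a single array per pup, the tests measure the spread between pups, and their number sets the precision: an interaction had a median standard error (SE) of 0.20. In whole tissue, fewer cells of a type and less RNA per cell cannot be told apart.

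As background, injured brain tissue typically responds through its glia. Microglia and invading macrophages release chemokines and cytokines, take up debris and fill their lysosomes. Astrocytes become reactive, with new filaments, secreted proteins and protease inhibitors, and vessels and matrix are rebuilt. Neurons at the same time can lose synaptic, channel and receptor transcripts. EPO signals through its receptor, the kinase JAK2 and the transcription factor STAT5, and is known in newborn brain research as a candidate protective agent. An interaction on a log2 scale asks whether the fold changes of 2 exposures multiply.

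Many inflammatory, phagocytic and vascular genes lay below the additive prediction in injured EPO pups, and some neuronal synaptic and channel genes lay above it. Limma called 1493 of the 14939 rows with 1 symbol (9.99%) at an adjusted p under 0.05, 1181 lower (7.91%) and 312 higher (2.09%). Of these, 535 lower and 43 higher rows departed by at least 2-fold from the prediction. Over all 23238 rows 1696 were called (7.30%), 1336 lower (5.75%) and 360 higher (1.55%). These shares are the background against which each gene list is read, and a gene can belong to several lists. The median interaction of all rows was -0.08.

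The balance of the directions depended on the scaling of the arrays. Rows called higher made up 21.2% of all calls on the deposited values. That share was 42.7% when the columns were quantile normalized again and 57% when array medians were set equal, a step that shifted the median interaction from -0.08 to 0.12. Equal medians shift every row alike, so counts of list members below or above 0 can also depend on the scaling. No row of the 1696 changed sign under any setting tried. Additivity also depends on the scale of the values: fitted on unlogged values, 1436 rows were called, 1375 of them among the 1696. Of the called genes named below 25 lost their call on unlogged values. A code in the titles takes 7 values and is not explained. With that code as a fixed block 902 rows were called, 872 of them among the 1696, and within the 11 arrays of code 3D 56 rows, of which 55 lower. Array medians ran from 5.05, on injured EPO replicate 3, to 5.43. Ttr, the transthyretin of the choroid plexus, read 6.52 on sham none replicate 5 and 12.46 or more on every other array. Without these 2 arrays 1391 rows were called, 475 higher and 916 lower.

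In most called genes the arrays labelled sham EPO were the ones apart, and under the other reading of the titles these are pups with injury alone. For each row the group was recorded whose mean lay farthest from the average of the other 3, as a description of the same values. It was sham EPO in 1599 of the 1696 called rows (94.3%) and in 45.2% of all rows. It was sham none in 53 called rows, injured EPO in 26 and injured none in 18. Among called rows with 1 symbol, 499 of 1181 lower rows and 224 of 312 higher rows had all 6 injured EPO arrays beyond every sham EPO array. The calls rest on a contrast that holds these same arrays, so part of that separation follows from the selection. The share over all rows was not counted. The plot of list shares gives the called members of each gene list, and the plot of list profiles sets the 3 group differences beside the interaction.

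**Figure D1:**
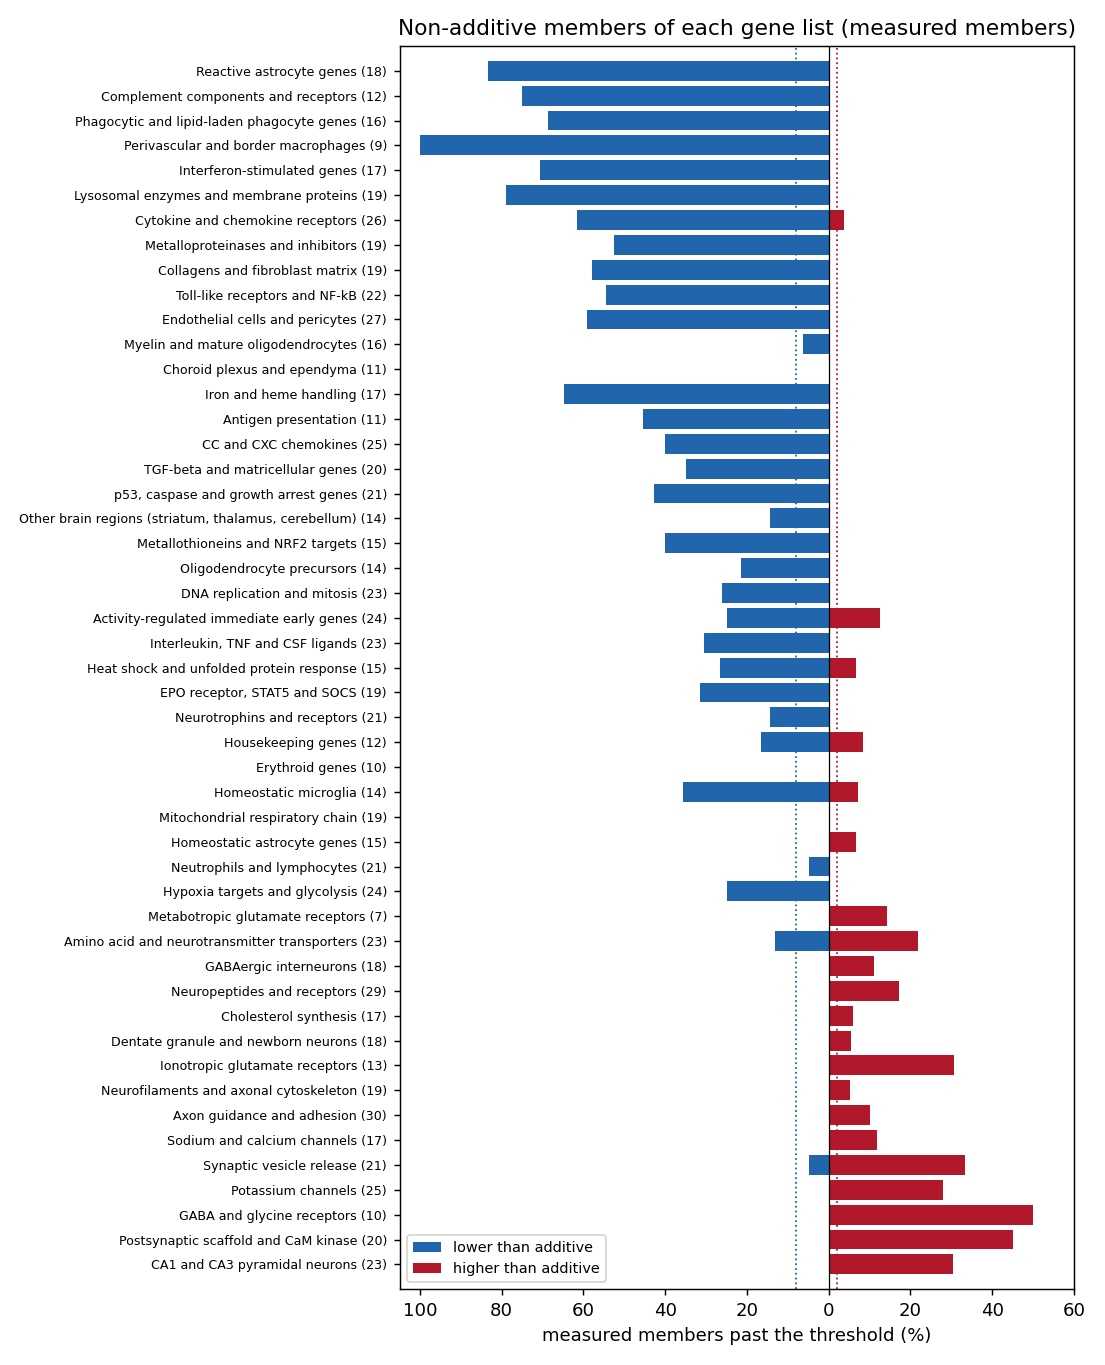
Share of the measured members of each gene list past the threshold (horizontal axis, percent), lower than additive to the left in blue and higher to the right in red, ordered by the list's median interaction, with the number of measured members in brackets. Dotted lines are the shares of all rows with 1 symbol, 7.91% lower and 2.09% higher. Reactive astrocyte genes are called lower in 15 of 18 members and postsynaptic genes higher in 9 of 20, while some lists, such as immediate early genes, hold both directions.

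**Figure D2:**
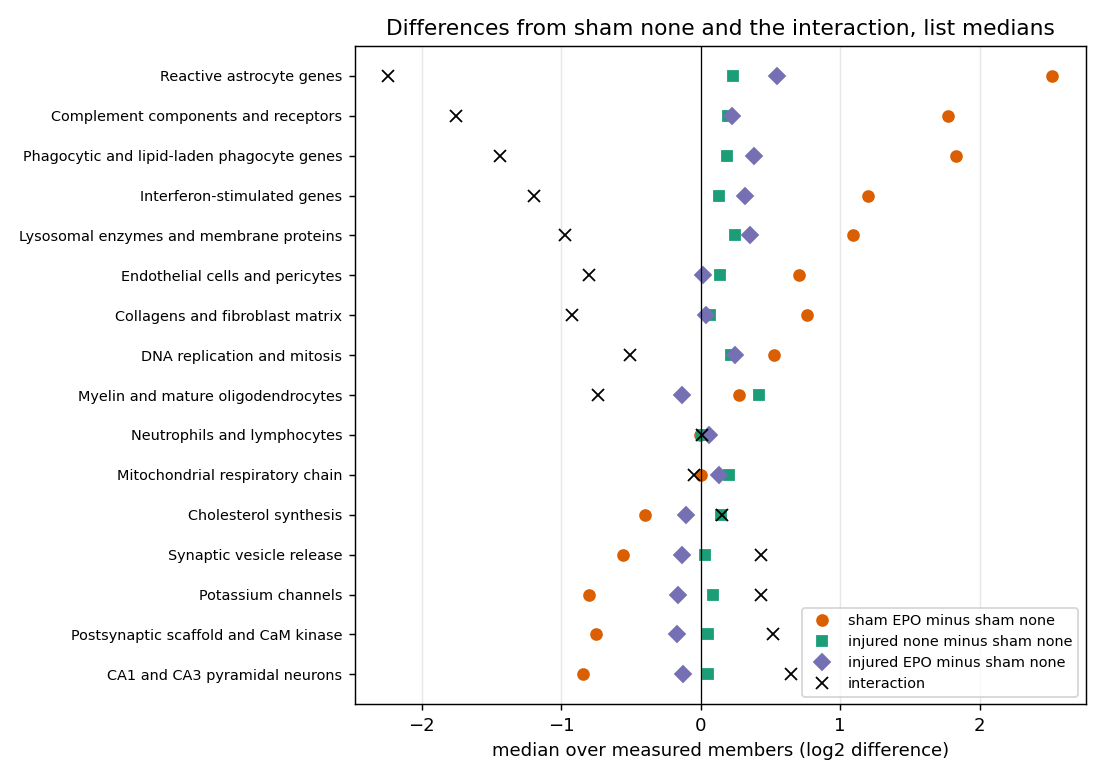
Median over the measured members of 16 gene lists (horizontal axis, log2 difference) of each group's difference from sham none and of the interaction, with circles for sham EPO, squares for injured none, diamonds for injured EPO and crosses for the interaction. In reactive astrocyte genes the sham EPO median is 2.52 and the injured EPO median 0.55. All differences share the sham none arrays.

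The largest interaction was that of Lcn2, a lipocalin that binds iron-carrying siderophores and is secreted by reactive astrocytes (row 6885873). It read 3.34 to 3.90 (median 3.62) on the sham none arrays, 8.85 to 10.73 (median 9.45) on the sham EPO arrays, 3.77 to 4.24 (median 4.02) on the injured none arrays and 3.73 to 6.99 (median 4.19) on the injured EPO arrays. All 6 injured EPO arrays lay below every sham EPO array, and 3 of them lay within the range of the 12 arrays without EPO. The additive prediction was 10.06 and the observed mean 4.73, an interaction of -5.33 ± 0.59 (log2 ± SE, limma adjusted p = 7.73e-06), or 40.1-fold below the prediction.

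Ccl3, a chemokine for monocytes and macrophages, also had a large interaction, with a much wider spread. It read 3.42 to 3.81 (median 3.66) on the sham none arrays, 10.23 to 10.91 (median 10.63) on the sham EPO arrays, 3.55 to 5.29 (median 3.84) on the injured none arrays and 3.39 to 10.63 (median 5.96) on the injured EPO arrays. The injured EPO arrays fell on both sides of a wide gap, with 1 array inside the sham EPO range and the lowest array below every sham none array. Its interaction was -4.53 ± 1.24 (adjusted p = 0.0251), and -3.99 (adjusted p = 0.0511) without injured EPO replicate 6. With the title code as a fixed block it was -4.42 (adjusted p = 0.112). Its neighbour in function Ccl11, or eotaxin, which recruits eosinophils, had the smallest p of all rows with 1 symbol. Ccl11 read 3.66 to 4.10 (median 3.96) on the sham none arrays, 7.42 to 7.93 (median 7.54) on the sham EPO arrays, 3.60 to 4.46 (median 3.96) on the injured none arrays and 3.86 to 4.71 (median 4.44) on the injured EPO arrays. All 6 injured EPO arrays lay below every sham EPO array, and 4 of them lay within the range of the arrays without EPO. On its row the interaction was -3.35 ± 0.21 (adjusted p = 8.81e-10).

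Hmox1, the enzyme heme oxygenase 1 that breaks down heme, read 4.90 to 5.60 (median 5.38) on the sham none arrays, 9.47 to 10.36 (median 9.95) on the sham EPO arrays, 5.30 to 5.91 (median 5.62) on the injured none arrays and 4.90 to 8.42 (median 5.89) on the injured EPO arrays. All injured EPO arrays lay below the sham EPO range, and 3 of them lay within the range of the arrays without EPO. Its interaction was -3.76 ± 0.59 (adjusted p = 0.000306). Steap4, a metal reductase induced by inflammation, read 3.21 to 4.10 (median 3.51) on the sham none arrays, 5.91 to 7.77 (median 6.41) on the sham EPO arrays, 3.24 to 4.62 (median 3.69) on the injured none arrays and 3.39 to 4.08 (median 3.81) on the injured EPO arrays. All 6 injured EPO arrays lay within the range of the arrays without EPO. Its interaction was -2.98 ± 0.36 (adjusted p = 2.28e-05). Tm4sf1, a membrane protein of endothelial and reactive astrocytic cells, read 7.42 to 8.25 (median 7.94) on the sham none arrays, 9.96 to 10.43 (median 10.21) on the sham EPO arrays, 8.01 to 8.61 (median 8.25) on the injured none arrays and 7.89 to 8.64 (median 8.19) on the injured EPO arrays, and its interaction was -2.35 ± 0.20 (adjusted p = 4.00e-07). Of its injured EPO arrays 5 lay within the range of the arrays without EPO.

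The other large falls below the prediction were of like kinds. The imprinted noncoding RNA H19 was at -4.57 ± 0.70, the chemokine gene Ccl9 at -3.69 ± 0.82 and C3ar1, the receptor of a complement C3 fragment, at -3.50 ± 0.72. Timp1, a metalloproteinase inhibitor, was at -3.29 ± 0.59, and Anxa1, an annexin that limits leukocyte entry, at -3.28 ± 0.52. The lipid droplet gene Plin2 was at -3.27 ± 0.59, the acute phase gene Saa3 at -3.16 ± 0.52 and the crosslinking enzyme gene Tgm1 at -3.04 ± 0.56. The chemokine gene Ccl12 was at -3.03 ± 0.60, the matrix protein gene Tgfbi at -3.03 ± 0.34 and Plek, the leukocyte protein pleckstrin, at -2.97 ± 0.63. Ptx3, a secreted pentraxin, was at -2.96 ± 0.33, the membrane protein gene Emp1 at -2.96 ± 0.30, Slfn2 at -2.90 ± 0.38 and Aldh1a2, a retinoic acid synthesis enzyme, at -2.88 ± 0.52. Their adjusted p ran from 3.03e-06 for Emp1 to 0.00640 for Ccl9. Aldh1a2 and H19 also varied among sham none arrays, with an SD of 0.94 each.

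**Figure D3:**
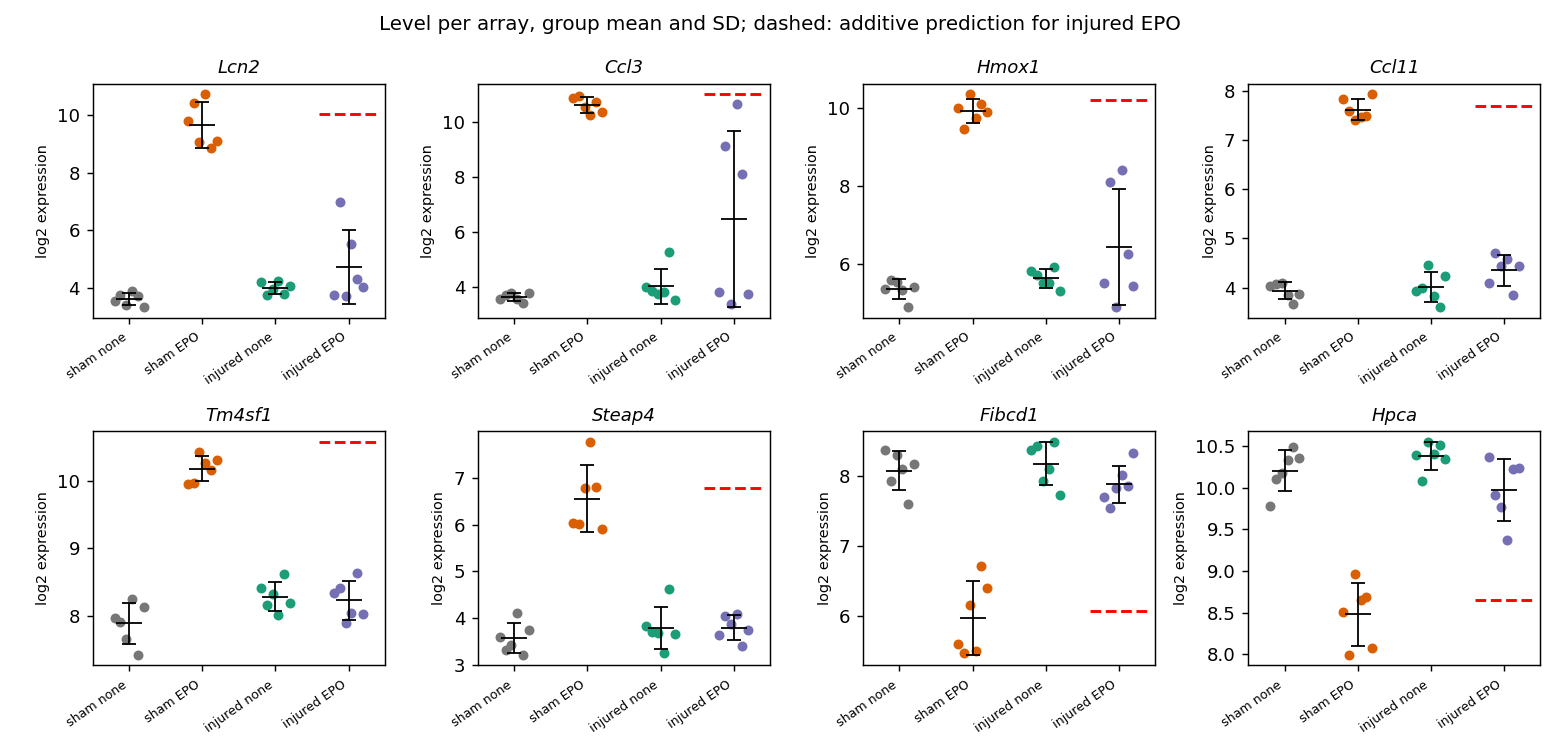
Level of 8 genes on each array (vertical axis, log2 expression) by group, with the group mean and SD in black and the additive prediction for injured EPO as a dashed red line. The injured EPO arrays of Lcn2, Ccl3 and Hmox1 are spread widely, those of Ccl11, Tm4sf1 and Steap4 lie together near the groups without EPO, and those of Fibcd1 and Hpca lie above the prediction.

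Among secreted signals, 10 of 25 measured chemokine ligands were called lower and none higher, with a median interaction of -0.62. Beside those above they included Cxcl16, a membrane-bound chemokine, at -2.08 ± 0.34, Ccl7 at -2.01 ± 0.25, the monocyte attractant Ccl2 at -1.94 ± 0.20 and Ccl4 at -1.66 ± 0.45. The neutrophil attractants Cxcl1 (-0.62 ± 0.29) and Cxcl2 (-1.29 ± 0.42) and the interferon-induced Cxcl10 (-1.39 ± 0.53) were not called. Of 23 interleukin, tumour necrosis factor and colony-stimulating factor genes 7 were called lower. They held the gp130 cytokines Il11 (-2.23 ± 0.34) and Clcf1 (-1.89 ± 0.25), and Csf1, the growth factor of macrophages and microglia, at -1.73 ± 0.33. Tnf was at -1.06 ± 0.31, and Il1b, at -1.30 ± 0.43, was not called.

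Receptors for these signals lay below the prediction too. Of 26 measured receptors 16 were called lower and 1 higher, with a median of -0.96. Osmr, the oncostatin M receptor, was at -2.77 ± 0.53, the tumour necrosis factor receptor Tnfrsf1a at -2.33 ± 0.30, the interleukin 4 receptor chain Il4ra at -2.12 ± 0.23 and the interleukin 1 receptor Il1r1 at -2.09 ± 0.32. Il4ra read 5.01 to 5.32 (median 5.16) on the sham none arrays, 7.20 to 7.98 (median 7.59) on the sham EPO arrays, 4.91 to 5.37 (median 5.15) on the injured none arrays and 5.02 to 6.22 (median 5.39) on the injured EPO arrays, so that the sham EPO arrays stood alone. The member called higher was Ifngr2, a chain of the interferon gamma receptor, at 0.40 ± 0.11.

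Genes of pattern recognition came next. Of 22 Toll-like receptor and NF-kB genes 12 were called lower, with a median of -0.83. The nucleic acid sensors Tlr13 (-2.56 ± 0.36) and Tlr7 (-2.14 ± 0.45), the endotoxin co-receptor Cd14 (-2.19 ± 0.49) and the adaptor Myd88 (-1.99 ± 0.35) had the lowest values. Nfkbia, the inhibitor that NF-kB itself induces, was at -1.51 ± 0.29. Interferon-stimulated genes were called lower in 12 of 17, with a median of -1.20. Ifitm3, which blocks virus entry, was at -2.49 ± 0.50, the GTPase gene Gbp2 at -1.89 ± 0.41 and the transcription factor gene Irf7 at -1.77 ± 0.39. Ifit1, at -1.42 ± 0.77, was not called, with an SD of 1.33 among the injured EPO arrays. In antigen presentation 5 of 11 members were called lower, with the class I light chain B2m at -1.67 ± 0.31 and the peptide transporter Tap1 at -0.93 ± 0.23. The class II genes H2-Aa (-0.36 ± 0.14) and Cd74 (-0.64 ± 0.25) were not called.

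Complement and phagocyte genes were called in most of their members. Of 12 measured complement genes 9 were called lower, with a median of -1.76. In all 9 of them every injured EPO array lay below every sham EPO array, as in 42.3% of all lower rows with 1 symbol. Part of that separation follows from the call, which rests on these same arrays, and the share over all rows was not counted. The inhibitor Serping1 was at -2.42 ± 0.35, and the C1q chains C1qa, C1qb and C1qc, which start the classical pathway, were at -1.80 ± 0.32, -2.33 ± 0.49 and -1.76 ± 0.36. Phagocyte genes were called lower in 11 of 16, with a median of -1.44. The scavenger receptor Msr1 was at -2.88 ± 0.43, the lysosomal glycoprotein Cd68 at -2.24 ± 0.53, the lipid scavenger Cd36 at -2.20 ± 0.25 and Gpnmb at -2.13 ± 0.40. Apoe, the lipid carrier, was at -0.34 ± 0.16 and Lpl, lipoprotein lipase, at 0.21 ± 0.25, and neither was called. Lysosomal genes were called lower in 15 of 19, with the cathepsins Ctsz (-2.04 ± 0.42), Ctsc (-2.02 ± 0.37) and Ctss (-1.41 ± 0.26) first and all 19 measured members below 0.

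The cell types of these genes can be followed through their markers. Perivascular macrophage genes were called lower in 9 of 9, among them F13a1 (-2.28 ± 0.33) and the hyaluronan receptor Lyve1 (-1.85 ± 0.32). Of 14 markers of resting microglia 5 were called lower and 1 higher, and the median was -0.17. The lipid sensor Trem2 (-1.58 ± 0.34) and Fcrls (-1.04 ± 0.27) were the largest falls. The purinergic receptor P2ry13 (0.80 ± 0.24) was the member called higher, and its relative P2ry12 was at 0.19 ± 0.16 and Tmem119 at 0.09 ± 0.23, neither called. Of 21 neutrophil and lymphocyte markers 1 was called, the pan-leukocyte antigen Ptprc at -1.40 ± 0.22, and the median was 0.01. The calprotectin genes S100a8 (-1.09 ± 0.45) and S100a9 (-0.93 ± 0.36) were not called.

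Reactive astrocyte genes were called lower in 15 of 18 and higher in none. Their median, -2.24, was the lowest of the 49 lists. The median difference from sham none was 2.52 in the group labelled sham EPO, 0.23 in that labelled injured none (exchanged under the other reading) and 0.55 with both exposures. The protease inhibitor gene Cd109 was at -2.50 ± 0.45, the sphingosine 1-phosphate receptor S1pr3 at -2.13 ± 0.45, and the filament genes Nes and Vim at -1.87 ± 0.26 and -1.86 ± 0.40. The best known marker, Gfap, was not called (-1.44 ± 0.47, adjusted p = 0.0662). That depended on the setting: it was called with quantile normalization, array weights or weights for unequal group variances, and in a fit of the rows with 1 symbol alone. It was also called without injured EPO replicate 2, 4 or 5. Gfap read 8.58 to 9.30 (median 8.93) on the sham none arrays, 10.85 to 11.56 (median 11.38) on the sham EPO arrays, 8.92 to 9.45 (median 9.18) on the injured none arrays and 8.63 to 11.62 (median 10.22) on the injured EPO arrays. Its injured EPO arrays spanned from the sham none level to above the highest sham EPO array. Of 15 genes of resting astrocytes 1 was called, the amino acid transporter Slc7a10 at 0.85 ± 0.15, and the median was -0.04. The water channel Aqp4 was at -0.51 ± 0.22 and the glutamine synthetase gene Glul at 0.35 ± 0.31, neither called.

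The list of EPO receptor, STAT5 and SOCS genes departed in part. Of 19 measured members 6 were called lower and none higher, with a median of -0.28. Socs3, the feedback inhibitor of gp130 receptors, read 5.24 to 5.70 (median 5.58) on the sham none arrays, 7.30 to 8.34 (median 7.77) on the sham EPO arrays, 4.80 to 5.62 (median 5.48) on the injured none arrays and 5.45 to 6.22 (median 5.84) on the injured EPO arrays. The sham EPO arrays lay above all others. A second row of Socs3, of lower level, was also called lower (-0.98). On the first row its interaction was -1.78 ± 0.26 (adjusted p = 0.000126). The shared receptor chain Csf2rb was at -1.56 ± 0.34, Stat3 at -1.46 ± 0.32, the phosphatase Ptpn6 at -1.33 ± 0.27, Stat5b at -0.94 ± 0.21 and the kinase Pim1 at -0.73 ± 0.20. These genes also serve other cytokines. The EPO receptor gene Epor was at 0.08 ± 0.14 (95% interval -0.21 to 0.38), the STAT5 target Cish at -0.38 ± 0.17 (-0.74 to -0.02), the survival gene Bcl2l1 at -0.20 ± 0.12 (-0.44 to 0.04) and Jak2 at -0.52 ± 0.24 (-1.01 to -0.03), none of them called. The Epo gene read 2.54 to 3.24 on the sham EPO arrays, near the bottom of the scale, and was at -0.23 ± 0.15.

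Vessel and matrix genes departed in the same direction as the glial ones. Endothelial and pericyte genes were called lower in 16 of 27, with a median of -0.80. The junction protein Cdh5 was at -2.10 ± 0.27, Angpt2, which loosens vessels, at -1.77 ± 0.30, Pecam1 at -1.74 ± 0.30 and the clotting factor Vwf at -1.41 ± 0.23. The tight junction gene Cldn5 (-0.84 ± 0.29) and the lipid transporter Mfsd2a (0.26 ± 0.13) of the blood-brain barrier were not called. Collagen and fibroblast matrix genes were called lower in 11 of 19, with fibronectin (Fn1) at -1.75 ± 0.36, periostin (Postn) at -1.39 ± 0.40 and the basement membrane collagen Col4a1 at -1.12 ± 0.17. With arrays centred on their medians or quantile normalized this count was 7. Metalloproteinases and their inhibitors were called lower in 10 of 19, among them the macrophage elastase Mmp12 (-1.87 ± 0.42), the urokinase receptor Plaur (-1.78 ± 0.28) and Adamts1 (-1.64 ± 0.30). Of 20 genes of transforming growth factor beta and its targets 7 were called lower. They held the matricellular genes Ccn1 (-2.88 ± 0.46), Thbs1 (-2.20 ± 0.42) and Ccn2 (-1.58 ± 0.40) and the ligand Tgfb1 (-1.31 ± 0.22).

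Stress and metabolic genes departed in part. Iron and heme genes were called lower in 11 of 17, a list that holds Lcn2, Hmox1 and Steap4. The iron carrier Trf was at -1.83 ± 0.48, the macrophage metal transporter Slc11a1 at -1.46 ± 0.21 and the ferritin heavy chain Fth1 at -0.53 ± 0.12. The transferrin receptor Tfrc (0.45 ± 0.29) and the iron exporter Slc40a1 (0.10 ± 0.24) were not called. With each array centred on its median 6 members were called. Metallothionein and NRF2 genes were called lower in 6 of 15, with the NRF2 gene Nfe2l2 itself at -1.91 ± 0.37, Gpx1 at -1.28 ± 0.28 and Mt2 at -1.10 ± 0.29. Of 15 heat shock and unfolded protein genes 4 were called lower, led by the stress factor Atf3 at -2.33 ± 0.58, and 1 higher, the chaperone Hsph1 at 0.64 ± 0.19. The p53, caspase and growth arrest list was called lower in 9 of 21, with Gadd45g at -1.85 ± 0.28, the initiator caspase Casp8 at -1.58 ± 0.27 and the cell cycle inhibitor Cdkn1a at -1.35 ± 0.37. DNA replication and mitosis genes were called lower in 6 of 23, with the cyclin Ccnd1 at -1.51 ± 0.29 and the helicase subunit Mcm3 at -1.37 ± 0.39. The proliferation marker Mki67 (-0.61 ± 0.25) was not called, although all 23 members lay below 0. Hypoxia and glycolysis genes were called lower in 6 of 24 around a median of 0.03. None was called higher, although 12 members lay above 0 and the largest value was 1.48. The vasodilator peptide gene Adm was at -1.95 ± 0.53 and the hexokinase Hk2 at -1.11 ± 0.23, and Vegfa was at -0.00 ± 0.14 (-0.29 to 0.29). With centring 5 of that list were called lower and 3 higher.

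Genes above the additive prediction included neuronal ones. Among called rows Itgbl1 departed most (2.02 ± 0.43), followed by Fibcd1, expressed by pyramidal cells of CA1 (1.82 ± 0.28), and Npy2r, a neuropeptide Y receptor (1.61 ± 0.38). Fibcd1 read 7.60 to 8.38 (median 8.14) on the sham none arrays, 5.46 to 6.72 (median 5.87) on the sham EPO arrays, 7.74 to 8.49 (median 8.25) on the injured none arrays and 7.54 to 8.33 (median 7.85) on the injured EPO arrays. Every injured EPO array lay above every sham EPO array, and 5 of the 6 lay within the range of the arrays without EPO. Hpca, the calcium sensor hippocalcin, read 9.78 to 10.49 (median 10.26) on the sham none arrays, 7.99 to 8.96 (median 8.58) on the sham EPO arrays, 10.08 to 10.55 (median 10.40) on the injured none arrays and 9.37 to 10.37 (median 10.07) on the injured EPO arrays. Its groups sham EPO and injured EPO did not overlap, and its interaction was 1.32 ± 0.24 (adjusted p = 0.00113). Fgf13, which binds sodium channels, was at 1.25 ± 0.19 and Neto1, an auxiliary subunit of glutamate receptors, at 1.22 ± 0.18. Cpne7 was at 1.61 ± 0.37, the gastrin-releasing peptide gene Grp at 1.53 ± 0.38, the heparan sulfate enzyme gene Ndst4 at 1.44 ± 0.37 and the protocadherin Pcdh20 at 1.38 ± 0.32. Mal2 was at 1.28 ± 0.27, the thyroid hormone binding protein gene Crym at 1.24 ± 0.30 and Popdc3 at 1.22 ± 0.26. Among these 13 genes Neto1 had the lowest adjusted p, 0.000172, and Ndst4 the highest, 0.0174. Itgbl1, Ndst4 and Pcdh20 lost their call when fitted on unlogged values.

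Markers of pyramidal neurons were called higher in 7 of 23 and lower in none, with a median of 0.65, and in 13 with each array centred on its median. The transcription factor Neurod2 was at 0.97 ± 0.22 and the pentraxin Nptx1 at 0.80 ± 0.17. Neurod6 had the largest value of the list, 1.88 ± 0.65, and was not called (adjusted p = 0.0818). Of 18 granule and newborn neuron genes 1 was called, Ncdn at 0.68 ± 0.14. The median of that list was 0.24, and 6 members lay below 0, the lowest at -0.60. Prox1, the identity factor of granule cells, was at 0.70 ± 0.36 and Dcx, of newborn neurons, at 0.24 ± 0.28, neither called. Of 18 interneuron genes 2 were called higher, the cannabinoid receptor Cnr1 (0.81 ± 0.17) and the peptide gene Cck (0.68 ± 0.14). The interneuron median was 0.12, and 7 members lay below 0, the lowest at -0.85. The enzymes Gad1 (0.11 ± 0.16; -0.22 to 0.43) and Gad2 (0.05 ± 0.19; -0.34 to 0.44), which make GABA, lay near 0.

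Postsynaptic and presynaptic genes held further calls above the prediction. The list of postsynaptic scaffold and calmodulin kinase genes was called higher in 9 of 20, with a median of 0.52. Itpka, an inositol phosphate kinase of dendritic spines, was at 1.27 ± 0.23, the adhesion protein Icam5 at 0.90 ± 0.16, Camkv at 0.79 ± 0.13 and the kinase Camk2a at 0.73 ± 0.15. Camk2d, the form found in many tissues, was at -0.95 ± 0.33 and was not called (adjusted p = 0.0807). Vesicle release genes were called higher in 7 of 21 and lower in 1. The vesicle protein Sv2b was at 1.04 ± 0.23, the complexins Cplx1 and Cplx2 at 0.79 ± 0.20 and 0.75 ± 0.17, and the fusion protein Snap25 at 0.57 ± 0.15. The member called lower was the priming factor Unc13c at -0.77 ± 0.22, whose injured EPO mean was the lowest of the 4 groups. With centring 14 were called higher and none lower.

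Receptors and channels of neurons had smaller values. GABA and glycine receptor genes were called higher in 5 of 10, with Gabra5, the subunit enriched in hippocampus, at 1.10 ± 0.20 and Gabra2 at 0.87 ± 0.20. Ionotropic glutamate receptor genes were called higher in 4 of 13: Grin2a at 0.90 ± 0.25, Gria1 at 0.84 ± 0.17, Grik4 at 0.78 ± 0.19 and Gria2 at 0.56 ± 0.14. With the title code as a fixed block 1 of these 4 kept its call, Gria1, and 2 of the 5 GABA and glycine receptor genes were called. Metabotropic receptors and their Homer partners had 1 of 7, the scaffold Homer1 at 0.68 ± 0.20. Potassium channel genes were called higher in 7 of 25, among them the channel partner Kcnip2 (0.93 ± 0.19), the M-current subunit Kcnq3 (0.93 ± 0.20) and the calcium-activated Kcnn2 (0.90 ± 0.22). With centring that count was 12. Sodium and calcium channel genes were called higher in 2 of 17, Scn3b at 0.74 ± 0.17 and Cacnb2 at 0.63 ± 0.18, and in 8 with centring. Neuropeptide genes were called higher in 5 of 29, with Npy1r at 1.10 ± 0.19, and Penk, the enkephalin precursor, at -1.24 ± 0.62 was not called. Axon guidance and adhesion genes were called higher in 3 of 30, Sema3e (0.95 ± 0.28), Nrp1 (0.88 ± 0.24) and Slit1 (0.78 ± 0.19), and in 9 with centring. Neurofilament and axonal cytoskeleton genes had 1 of 19, Nefl at 0.78 ± 0.14, and 7 with centring.

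Some functions held calls in both directions. Of 24 immediate early genes 6 were called lower and 3 higher. Ier3 (-2.14 ± 0.40), Fos (-1.83 ± 0.29), Myc (-1.51 ± 0.34), Dusp1 (-1.25 ± 0.22), Ier2 (-1.25 ± 0.28) and Junb (-0.64 ± 0.19) lay below the prediction. The nuclear receptors Nr4a2 (1.35 ± 0.38) and Nr4a3 (0.83 ± 0.20) and the scaffold Homer1 lay above it. Arc (0.14 ± 0.30), Egr1 (-0.42 ± 0.21) and Bdnf (0.23 ± 0.18), which neuronal firing induces, were not called. Fos read 4.92 to 5.40 (median 5.29) on the sham none arrays, 7.16 to 7.89 (median 7.45) on the sham EPO arrays, 4.87 to 5.46 (median 5.14) on the injured none arrays and 5.08 to 6.54 (median 5.35) on the injured EPO arrays. The highest injured EPO array of Fos stayed below the lowest sham EPO array. Of 23 transporters 5 were called higher and 3 lower. The vesicular glutamate transporter Slc17a7 was at 0.74 ± 0.21 and the proline transporter Slc6a7 at 0.77 ± 0.21, while the proline transporter Slc6a20a was at -1.69 ± 0.33 and the glutamine transporter Slc1a5 at -1.23 ± 0.25. Of 21 growth and neurotrophic factor genes 3 were called lower, Igfbp3 (-1.84 ± 0.26), Hbegf (-1.34 ± 0.22) and Mdk (-1.13 ± 0.25). Ntrk2, the receptor of BDNF, was at -0.29 ± 0.16 and not called.

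Several functions had few or no calls, while the precursor and reference genes given last were called above the background share. No member of 19 respiratory chain genes was called, and their values lay between -0.37 and 0.32. Of 17 cholesterol synthesis genes 1 was called, Hmgcs1 at 0.54 ± 0.13, with a median of 0.15. Their median difference from sham none was -0.40 in the group labelled sham EPO, 0.15 in that labelled injured none (exchanged under the other reading) and -0.10 with both exposures. No erythroid gene of 10 was called, and the heme enzyme Alas2, at -1.20 ± 0.44, had a 95% interval of -2.12 to -0.28. Myelin genes had the largest departure among lists with almost no call. Their median was -0.74, all 16 members lay below 0, and 1 was called, Trf. Mog, a myelin surface protein, was at -1.67 ± 0.82 (adjusted p = 0.242). The list's mean level per array ran from 6.16 to 7.78 on sham none, 6.81 to 7.88 on sham EPO, 6.57 to 8.90 on injured none and 6.37 to 7.43 on injured EPO arrays, so the groups overlapped widely. Of 14 precursor genes 3 were called lower (21.4%, against 7.91% of all rows with 1 symbol), among them Sox10 (-0.77 ± 0.18) and Cspg4 (-0.69 ± 0.21). Of 12 commonly used reference genes 2 were called lower, B2m and Gusb (-1.31 ± 0.27), and 1 higher, Ywhaz (0.33 ± 0.09), while Actb was at -0.34 ± 0.20.

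Tissue from beside the hippocampus was looked for through markers. None of 11 choroid plexus and ependyma genes was called, but all lay below 0, with a median of -0.69. Their mean level per array ran from 4.73 to 7.33 on sham none, 6.42 to 7.30 on sham EPO, 6.43 to 7.89 on injured none and 5.98 to 7.17 on injured EPO arrays. With that level as a covariate 1101 rows were called, 1085 of them among the 1696. Of 14 markers of striatum, thalamus and cerebellum 2 were called lower, Rgs9 (-0.77 ± 0.23) and Lef1 (-0.46 ± 0.14), and none with either other scaling. The mean level of that list ran from 5.71 to 6.01 on sham none, 5.92 to 6.53 on sham EPO, 5.93 to 6.09 on injured none and 5.64 to 6.04 on injured EPO arrays. With the choroid plexus level as a covariate 24 of the called genes named here lost their call. Among them were Ccl3, Ccl4, Tnf, Cdkn1a, Trf, Postn, Mertk, Fzd4, Slc17a7 and Snap25. How much of a single gene's value came from these tissues was not tested.

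The title code is shared across groups only in part. Codes 3D and 3F hold every group, 3A and 3E some of them, and 3B, 3C and 3G a single array each. A fixed block takes those single arrays out of the contrast. With that block 50 of the called genes named here lost their call, with adjusted p from 0.0539 to 0.187 and none with the other sign. They were Agmo, As3mt, Atf3, Cacnb2, Ccl3, Ccl4, Ccl9, Ccn2, Cd68, Cdkn1a, Cplx1, Cspg4, Fcrls, Fzd4, Gabra2, Gpx1, Gria2, Grik4, Grin2a, Grp, Hmgcs1, Homer1, Hsph1, Ifngr2, Junb, Kcnn2, Lef1, Mcm3, Mertk, Mt2, Nde1, Npy2r, Nr4a2, Nr4a3, Nrp1, Olfr1413, P2ry13, Pcdh20, Pim1, Postn, Rgs9, Sema3e, Slc17a7, Slc6a7, Snap25, Sox10, Tap1, Tnf, Unc13c and Ywhaz. By list, the calls lower were then 5 of the chemokines, 6 of the interferon-stimulated genes, 1 of the resting microglia markers, 6 of the collagen list, 7 of the iron list, 2 of the NRF2 list and 2 of the replication list. Reactive astrocyte genes had 14 and lysosomal genes 12 calls lower. The calls higher were 4 of the vesicle release genes, 2 of the neuropeptide genes and 8 of the postsynaptic genes.

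A small set of called genes had another shape. In 39 rows with 1 symbol sham none was the group farthest apart, and all 39 were called lower. Bmp4, a growth factor of oligodendrocyte precursors, read 5.33 to 6.12 (median 5.77) on the sham none arrays, 6.55 to 6.81 (median 6.70) on the sham EPO arrays, 6.25 to 6.67 (median 6.54) on the injured none arrays and 5.38 to 6.80 (median 6.15) on the injured EPO arrays. Its sham none arrays lay below every sham EPO and injured none array, and its injured EPO arrays spanned from one to the other. Its interaction was -1.31 ± 0.25 (adjusted p = 0.00173). Egln3, the oxygen sensor that marks HIF1A for breakdown, was at -1.18 ± 0.33, and its mean was 5.72 in sham none pups, 6.66 and 6.35 in those labelled sham EPO and injured none and 6.11 with both exposures. Others were the arsenic methyltransferase As3mt (-0.82 ± 0.21), Rpp40 (-0.78 ± 0.18) and Nde1, a centrosome protein of dividing progenitors (-0.77 ± 0.22).

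In 14 rows with 1 symbol injured EPO was farthest apart, 11 of them lower. Mertk, a receptor for the uptake of dying cells, read 5.83 to 7.08 (median 6.79) on the sham none arrays, 6.71 to 7.45 (median 7.10) on the sham EPO arrays, 6.46 to 7.31 (median 7.03) on the injured none arrays and 5.63 to 7.07 (median 6.18) on the injured EPO arrays. Its injured EPO mean was the lowest of the 4, though the groups overlapped, and its interaction was -1.10 ± 0.32 (adjusted p = 0.0348). Entpd1, the microglial and endothelial enzyme CD39 that breaks down extracellular ATP, had means of 6.76, 7.12, 7.06 and 6.55 (sham none first, then the labelled sham EPO and injured none, then both exposures) and an interaction of -0.88 ± 0.19. Fzd4, a Wnt and norrin receptor of vessels, was at -0.83 ± 0.22 and Cd34, a surface protein of endothelium, at -0.75 ± 0.20. Fzd4 read 5.39 on injured EPO replicate 3 and 5.95 to 6.28 on the other injured EPO arrays. With that array and sham none replicate 5 both left out, Fzd4 and Mertk lost their call. Cd34 lost its call with arrays centred on their medians. In 5 rows injured none was farthest apart. Agmo, an enzyme that cleaves ether lipids, averaged 4.55 ± 0.10 (SD) in injured none against 4.01 ± 0.19, 4.13 ± 0.09 and 4.06 ± 0.32 in sham none, sham EPO and injured EPO, with an interaction of -0.61 ± 0.17. The odorant receptor gene Olfr1413 went the other way, at 1.04 ± 0.27, from a low level in injured none (3.93 ± 0.38). The adiponectin receptor Adipor2 was at -0.51 ± 0.15. These sets are small beside the 1435 rows with 1 symbol in which sham EPO was farthest.

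**Figure D4:**
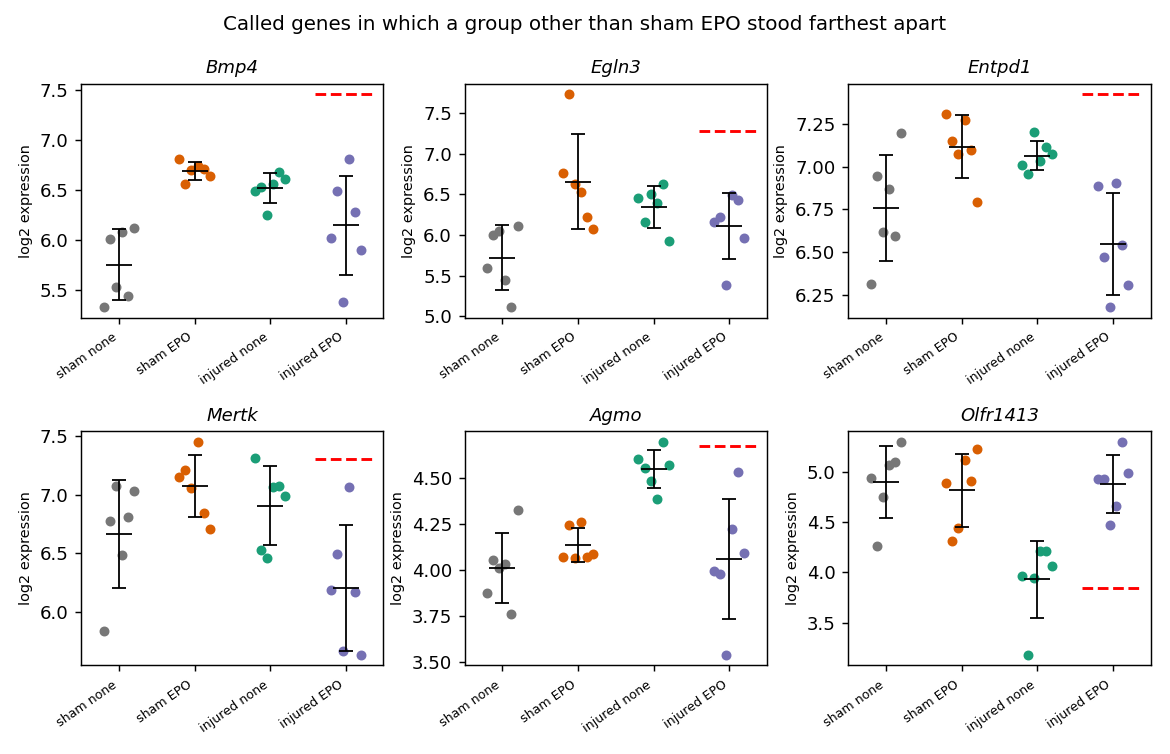
Level of 6 called genes on each array (vertical axis, log2 expression) by group, with the group mean and SD in black and the additive prediction for injured EPO as a dashed red line. Bmp4 and Egln3 are lowest in sham none, Entpd1 and Mertk in injured EPO, and Agmo and Olfr1413 depart in injured none.

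The injured EPO arrays differed among themselves, and genes differed in how far. Among the 1181 lower rows with 1 symbol the median SD was 0.35 in injured EPO, 0.23 in sham EPO, 0.20 in sham none and 0.17 in injured none. In rows not called these medians were 0.25, 0.19, 0.19 and 0.16. The SD was largest in injured EPO in 67.3% of the lower rows, 33.3% of the higher rows and 51% of rows not called. Spread among injured EPO arrays was wide for Ccl3 (SD 3.18), Ccl9 (2.11), C3ar1 (1.83), Plek (1.59) and Plin2 (1.51). It was narrow for Ccl2 (0.19), Steap4 (0.26), Tm4sf1 (0.28), Saa3 (0.31) and Ccl11 (0.32). The mean level of the reactive astrocyte list per array ran from 5.82 to 6.30 on sham none, 8.48 to 9.09 on sham EPO, 6.16 to 6.58 on injured none and 5.95 to 7.67 on injured EPO arrays. All injured EPO arrays lay below the sham EPO range of that list, and some lay above every array without EPO. The mean level of postsynaptic genes ran from 9.42 to 9.83 on sham none, 8.72 to 9.05 on sham EPO, 9.61 to 9.78 on injured none and 9.08 to 9.67 on injured EPO arrays. For these genes too the injured EPO range did not reach that of sham EPO. With weights for unequal group variances 1805 rows were called, 1677 of them among the 1696.

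**Figure D5:**
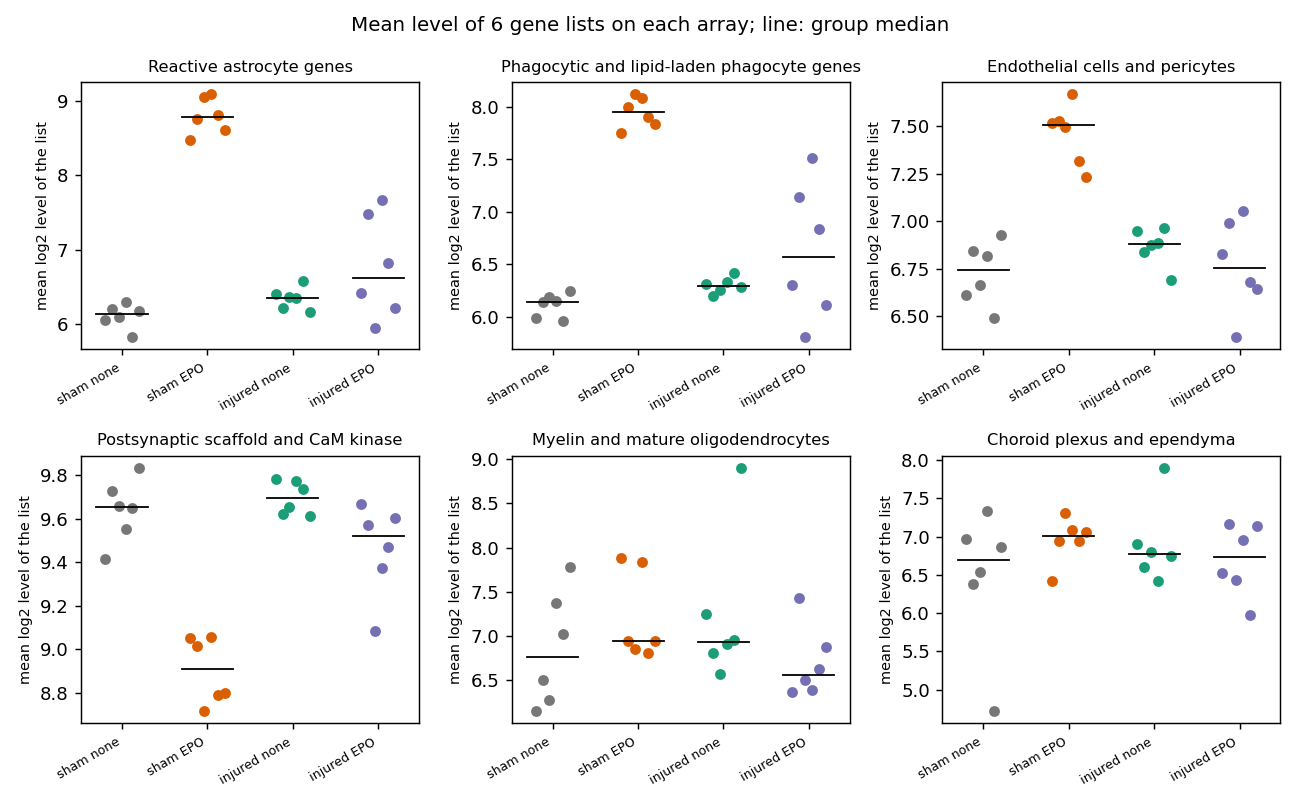
Mean level of 6 gene lists on each array (vertical axis, mean log2 level) by group, with the group median as a line. The injured EPO arrays are spread widely for reactive astrocyte and phagocyte genes, all below the sham EPO arrays, with 1 array of the phagocyte list below every array without EPO, and 1 sham none array is far below the others for the choroid plexus list.

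The 250 bases before the start of each gene were searched for 5 short motifs on both strands, chosen after the results were seen. Promoter sequences came from RefSeq (GRCm38.p6), the first listed start of each gene, and matched 11855 genes, 933 of them lower and 230 higher. The NF-kB motif, GGG and TTTCC with any 2 bases between them, was in 2.68% of lower, 0.435% of higher and 1.34% of all promoters. The interferon response motif, TTTC and TTTC with any 2 bases between them, was in 4.82%, 1.74% and 2.78%. The STAT motif TTCNNNGAA was in 6.32%, 3.91% and 6.34%, the AP-1 motif TGANTCA in 7.07%, 4.35% and 5.96%, and the cyclic AMP motif TGACGTCA in 1.39%, 3.04% and 2.08%. No test was made of these shares, and a match is not a bound site. As examples of lower genes with a match, stretches around the match are shown 5′ to 3′ on the strand of the gene. Only the match of a single chosen motif per gene is in capitals.
B2m (chr2:122147536-122147595, + strand): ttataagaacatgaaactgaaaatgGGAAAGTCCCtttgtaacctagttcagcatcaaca
Nfkbia (chr12:55492648-55492701, - strand): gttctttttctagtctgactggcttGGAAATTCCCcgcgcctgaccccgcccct
Csf1 (chr3:107760589-107760648, - strand): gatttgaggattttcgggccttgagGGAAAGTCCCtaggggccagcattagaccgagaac
Gbp2 (chr3:142620579-142620638, + strand): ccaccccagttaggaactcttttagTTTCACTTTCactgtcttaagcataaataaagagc
Myd88 (chr9:119340024-119340083, - strand): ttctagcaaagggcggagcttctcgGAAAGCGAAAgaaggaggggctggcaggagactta
Their interactions are given above with those of their groups. In capitals, B2m, Nfkbia and Csf1 carry the NF-kB motif read on the other strand. Gbp2 carries the interferon response motif as written and Myd88 the same read on the other strand. The B2m stretch also holds the interferon response motif read on the other strand, and the Myd88 stretch the STAT motif, neither of them marked.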

How the data were processed

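The values came from a single table of 24 Affymetrix Mouse Exon 1.0 ST arrays, 6 in each of 4 groups. Per the submitters' processing notes, the authors used Affymetrix Expression Console and RMA; no source used here gives versions, the level of summary or the annotation. The deposited values are on a log2 scale, from 1.52 to 13.52, with no missing value, and were used as deposited. Gene names came from the platform annotation: 14939 of 23238 rows carry 1 symbol, 989 several and 7310 none. Of the named rows 14884 were found by Entrez number in RefSeq, with 0 symbols to update.

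Limma 3.58.1 in R 4.3.3 fitted 1 mean per group to all rows (20 residual degrees of freedom). Benjamini-Hochberg adjustment ran over all 23238 rows at 0.05, with no filter on level. Intervals are 95%. The script was tested on simulated data. The members, the 49 lists and the tests were chosen with earlier results of these data known. Named were the 20 largest departures each way, up to 4 members of each list with the largest absolute value, 8 rows for each other shape, the 8 smallest p and 12 chosen genes; of a gene's several rows the brightest stood in its list. Others were named after their values were seen, including most members given as not called. Of 1046 listed genes 185 had no row and are not analysed here. No paired analysis was possible because the replicate numbers follow accession order. Pups are the only replicates, and no record of litter or date was used.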

Additional observations from a re-analysis of the deposited data

Results flagged for a closer look

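Across 221 named genes and 4 groups, 884 sets of 6 arrays were looked at for a single array with a wide gap to the rest, by Dixon's test. In 36 sets an array stood apart; chance alone gives about 1 in 20, or 44.2 of 884. Replicate 3 of injured none was the highest of its group for Atf3 (3.50). Replicate 1 of sham none was the lowest of its group for C1qb (6.91), Fth1 (11.71) and Gusb (5.65). Replicate 6 of injured none was the lowest of its group for Camkv (10.42), Col4a1 (7.13), Crym (9.69), Fn1 (7.51), Myc (6.80) and Plin2 (6.70). Replicate 2 of injured none was the highest of its group for Ccl2 (4.42). Replicate 5 of injured none was the highest of its group for Ccl3 (5.29), Postn (6.56) and Ttr (13.26). Replicate 6 of injured none was the highest of its group for Ccn1 (5.68) and Trf (9.36). Replicate 2 of sham EPO was the highest of its group for Cd68 (10.31) and Lyve1 (6.55). Replicate 5 of sham EPO was the highest of its group for Cnr1 (9.64). Replicate 1 of sham EPO was the lowest of its group for Ctsc (8.70). Replicate 4 of injured EPO was the highest of its group for Epo (2.93). Replicate 1 of sham EPO was the highest of its group for Epo (3.24). Replicate 3 of injured EPO was the lowest of its group for Fzd4 (5.39), Gad2 (8.68) and Prox1 (6.91). Replicate 5 of sham none was the lowest of its group for Hmox1 (4.90), Plin2 (6.05) and Ttr (6.52). Replicate 2 of injured none was the lowest of its group for Olfr1413 (3.18), Stat3 (7.46) and Stat5b (5.88). Replicate 3 of sham EPO was the lowest of its group for P2ry13 (5.34). Replicate 3 of injured EPO was the highest of its group for S100a9 (3.92). Replicate 4 of injured none was the lowest of its group for Slc7a10 (8.66). Replicate 2 of injured EPO was the highest of its group for Tgfbi (6.33). Replicate 5 of injured none was the lowest of its group for Tgm1 (3.76). The sham none array with the low Ttr value is the one described with the choroid plexus list, and injured EPO replicate 3 has the lowest array median. The effect of injury differed between pups with and without EPO in 1696 rows by the limma test of the interaction itself, which is the comparison of the report. Of these rows, 203 carry no single gene symbol and were not described.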

How the results depend on the processing

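Of 1696 called rows, none changed sign under any alternative run, and 360 higher and 1336 lower rows became 1239 and 935 after centring of the arrays, 902 and 1208 after quantile normalization, and 216 and 1220 on the linear scale. With array weights 647 and 1781 were called. The title code as a fixed block left 902 (164 and 738) and code 3D alone, with fewer arrays, 56 (1 and 55); as a random block it left 1702. An adjusted p under 0.01 left 745 (112 and 633) and a 2-fold minimum 654 (58 and 596). Chosen after seeing the data were the choroid plexus level as a covariate, with 1101 (246 and 855), and 2 arrays left out, with 1391 (475 and 916). The other alternatives with all arrays gave 1575 to 1876. The lowest, 1575, came with the level of a Y chromosome gene as a covariate. In every group that gene read low on some arrays and high on others, such as 2.50 and 7.90 on sham none replicates 1 and 6. The sex of the pups did not enter the main fit. Except where an alternative is stricter or has fewer arrays, the cause was not tested. Leaving out 1 array gave 1233 to 2411 called rows, 239 to 497 higher and 994 to 1955 lower; the lowest counts came without injured EPO replicate 6, the highest total and lower counts without replicate 4 and the highest higher count without replicate 3. Of 179 called genes named in the text, none was reversed, 15 stayed past the threshold in every alternative, and 24 lost the call when 1 array was left out: Adipor2, Cacnb2, Ccl3, Ccl4, Cdkn1a, Cspg4, Egln3, Grin2a, Homer1, Hsph1, Junb, Lef1, Mcm3, Mertk, Nde1, Nr4a2, P2ry13, Postn, Rgs9, Sema3e, Slc17a7, Slc6a7, Tnf and Unc13c. Named genes not called in the main fit that gained a call in some alternative were Alas2, Camk2d, Cldn5, Cxcl1, Cxcl10, Cxcl2, Gfap, Il1b, Mfsd2a, Neurod6 and S100a9. The number of arrays limits the precision, and dim rows near the bottom of the scale were kept.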
